A study of Mus musculus with 4 samples.

Results

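Nfe2l2 encodes Nrf2, the transcription factor that drives the response to oxidative and electrophilic stress, and the 10 genes described here are this factor, its inhibitor and 8 of its classical targets in glutathione, thioredoxin and haem metabolism. They were taken by gene symbol from the annotated table of raw counts, and all 10 (Nfe2l2, Keap1, Nqo1, Hmox1, Gclc, Gclm, Txnrd1, Srxn1, Gsr and Slc7a11) were found among 39017 genes. All 10 had a mean of at least 1 CPM (counts per 1000000, scaled to the effective library size), as did 14225 genes in all, which were the genes tested.

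In unstressed cells Keap1 holds Nrf2 and hands it to a Cul3 ubiquitin ligase for degradation. Oxidants and electrophiles modify Keap1, Nrf2 escapes and enters the nucleus, and with small Maf proteins it binds antioxidant response elements near its target genes. The control therefore acts largely on the protein, and the transcripts of target genes are the usual readout of the pathway in RNA. In lung adenocarcinoma the pathway is best known from tumours with mutations in KEAP1 or NFE2L2, and in lung as a whole it protects epithelium and macrophages against inhaled oxidants.

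RNA was sequenced from 4 lung tumours of male C57BL/6 mice, with 1 library per tumour, and the 4 tumours form a single group. All mice carried K-ras LSL-G12D/WT, an oncogenic allele kept silent by a stop cassette until Cre removes it, and p53 Fl/Fl (together KP). Tumours were started with 1500 viral units of lenti.PGK-Cre given through the trachea, a vector whose PGK promoter is active in most cell types, and were macrodissected after 22 weeks and 5 days. The labels also give a heterozygous floxed allele without naming its gene, the columns of the authors' log2 table are marked WT, and by the study's methods control mice either carried 1 floxed Slc2a1 allele or none. The age of the mice and whether each tumour came from its own mouse are not given in the sources used here, so p-values refer to these samples only. With 1 library per tumour, differences from library preparation cannot be told apart from differences between tumours. No group without tumours or with another genotype is part of these data, so every comparison below is between tumours or between genes within a tumour.

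Total counts were 8151613 to 8799007 per tumour, and 3 counts, the most that a count of 0 allows, corresponded to 0.330 to 0.370 CPM. Of the label of lung tumour, the lung part was checked against marker genes. Without a sample of normal lung, these markers cannot check the tumour part. Alveolar type 2 markers summed to 32860 to 60875 CPM per tumour and epithelial markers to 2488 to 3972 CPM. The tumours were sequenced whole after dissociation, so immune and stromal transcripts were also counted, and fewer cells of a type cannot be told apart from less RNA per cell. Tumour 3 had the highest summed level of pan-leukocyte markers (206 CPM against 87.6 to 121), and tumour 1 had the lowest level of club cell markers (36.4 CPM against 521 to 878). Trp53, which Cre deletes in tumour cells of this model, was at 9.75 to 13.0 CPM, a count per gene that does not separate deleted from intact transcripts.

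Because the 8 targets are defined by the antioxidant response element, the sequence before their transcription start is shown where letters of that element occur. RefSeq promoter windows (GRCm38.p6, 250 bases before to 50 bases after a start) were held for 7 of the 10 genes, in 9 windows. Hmox1, Gclc and Gsr had no entry. The element's core was searched on both strands as TGACNNNGC and as TGAGNNNGC, which cannot match at the same bases of a strand. The first was found in 12.4% of all 32851 windows, the second in 17.6%, and either in 27.8%. Either was found in 5 of the 9 windows, which belonged to Nfe2l2, Gclm, Txnrd1 (1 of its 3 windows), Srxn1 and Slc7a11, and neither was found in the windows of Keap1 and Nqo1. The stretches below run 5′ to 3′ on the strand of the gene, with matched letters in capitals. Matches on the opposite strand therefore appear reversed and complemented. Srxn1 held TGAGTCAGC at -45 from the start on its own strand and TGAGTCGGC at -158 on the other strand. A further match, TGACCTAGC, lies after the start, at 29 to 37 on the other strand, and is outside the stretch shown. The positions are chr2:152105346-152105507 (plus) for Srxn1, chr3:50443682-50443730 (minus) for Slc7a11, chr3:122245403-122245451 (plus) for Gclm, chr10:82859094-82859142 (plus) for Txnrd1 and chr2:75704875-75704913 (minus) for Nfe2l2. A match describes the letters and is not evidence of binding.
Srxn1: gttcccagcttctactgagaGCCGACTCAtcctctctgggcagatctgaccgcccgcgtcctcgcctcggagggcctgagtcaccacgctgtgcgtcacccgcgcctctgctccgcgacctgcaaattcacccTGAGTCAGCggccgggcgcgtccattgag
Slc7a11: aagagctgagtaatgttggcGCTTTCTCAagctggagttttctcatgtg
Gclm: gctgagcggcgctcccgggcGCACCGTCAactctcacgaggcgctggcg
Txnrd1: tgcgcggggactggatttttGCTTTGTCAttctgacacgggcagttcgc
Nfe2l2: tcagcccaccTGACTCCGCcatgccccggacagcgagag

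Nfe2l2 transcripts differed little between tumours, and Keap1 transcripts were more than 10-fold fewer per kilobase of exon. Nfe2l2 (ENSMUSG00000015839, chr2:75675513-75704641, minus strand, 5 exons) was at 387, 440, 390 and 486 CPM in tumours 1 to 4 (mean 426 ± 47.0, SD, n = 4). Tumour 4 was highest, and tumours 1 and 3 had nearly the same value. The highest tumour was 1.26-fold above the lowest, and with 3162 to 4088 counts behind each value even this range exceeded counting noise (chi-square test against Poisson expectations, adjusted p = 1.05e-27).

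Keap1 (ENSMUSG00000003308, chr9:21229730-21239361, minus strand, 5 exons), the adaptor that binds Nrf2, was at 37.7, 45.5, 28.5 and 34.6 CPM (mean 36.6 ± 7.08, SD, n = 4). It was highest in tumour 2 and lowest in tumour 3, a range of 1.60-fold that also exceeded counting noise (chi-square test, adjusted p = 4.06e-07). Its exons overlap an antisense gene, Gm16754, over 510 nt, which had at most 2.53 CPM. Since the strand setting of the counting is not given in the sources used here, reads there may belong to either gene. Per kilobase of annotated exons, Nfe2l2 exceeded Keap1 by 3.66, 3.58, 4.08 and 4.12 on the log2 scale (mean 3.86 ± 0.28, SD, n = 4), which is 14.5-fold. The excess was present in 4 of 4 tumours. An exact permutation test that flips the signs of the 4 differences, two-sided, gave p = 0.125 (0.125 after adjustment over 3 such pairs), which is as low as 4 values can reach.

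Nqo1 had the widest spread of the 10 genes and the lowest count. It encodes NAD(P)H quinone dehydrogenase 1, which reduces quinones and is the target gene most often used to report Nrf2 activity. Nqo1 (ENSMUSG00000003849, chr8:107388225-107403206, minus strand, 6 exons) was at 2.09, 4.88, 10.9 and 3.81 CPM (mean 5.41 ± 3.81, SD, n = 4), from 19, 42, 88 and 32 counts. Tumour 3 stood at 5.19 times tumour 1. The exact Poisson 95% intervals were 1.26 to 3.26 CPM in tumour 1 and 8.71 to 13.4 CPM in tumour 3, so these tumours were separated despite the low counts. Intervals of tumours 2 and 4, at 3.52 to 6.59 and 2.60 to 5.37 CPM, overlapped, and that of tumour 4 also overlapped that of tumour 1. The spread exceeded counting noise (chi-square test, adjusted p = 3.01e-14), and the SD of log2 CPM, 0.97, was above that of 93.6% of tested genes.

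Hmox1 (ENSMUSG00000005413, chr8:75093621-75100589, plus strand, 5 exons) encodes haem oxygenase 1, which breaks haem down to biliverdin, iron and carbon monoxide and is also strongly expressed by macrophages that clear red cells. Its level was 58.2, 91.9, 139 and 61.7 CPM (mean 87.8 ± 37.5, SD, n = 4). Tumour 3 was highest, tumour 2 intermediate, and tumours 1 and 4 were close to each other at the low end. The 2.39-fold range exceeded counting noise (chi-square test, adjusted p = 2.93e-86).

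The glutathione genes among the 10 cover uptake of cystine, synthesis and recycling. Slc7a11, Gclc and Gsr shared the order of tumours seen for Nqo1 at its ends, highest in tumour 3 and lowest in tumour 1, whereas Gclm was lowest in tumour 3.

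Slc7a11 (ENSMUSG00000027737, chr3:49892526-50443614, minus strand, 12 exons) encodes xCT, the light chain of the cystine/glutamate exchanger that supplies cysteine for glutathione. It was at 10.9, 15.4, 31.0 and 11.1 CPM (mean 17.1 ± 9.49, SD, n = 4). Tumour 3 was highest, and tumours 1 and 4 were nearly equal at the low end. The 2.84-fold range exceeded counting noise (chi-square test, adjusted p = 9.25e-28). Its partner Slc3a2, the heavy chain shared by several amino acid transporters, was at 127, 109, 127 and 119 CPM and varied only 1.17-fold. Per kilobase, the log2 difference of Slc7a11 minus Slc3a2 was -5.52, -4.79, -4.01 and -5.40 (mean -4.93 ± 0.69, SD, n = 4). Slc7a11 was the lower in 4 of 4 tumours (exact sign-flip test, p = 0.125, adjusted 0.125). The count of Slc3a2 is uncertain, because its transcripts hold stretches found almost unchanged in 52 other genes of the annotation.

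Gclc and Gclm encode the catalytic and the modifier subunit of glutamate-cysteine ligase, the first and rate-limiting step of glutathione synthesis. Gclc (ENSMUSG00000032350, chr9:77754535-77794485, plus strand, 16 exons) was at 288, 490, 708 and 594 CPM (mean 520 ± 178, SD, n = 4). Tumour 3 was highest and tumour 1 lowest, with a 2.46-fold range over 2621 to 5741 counts and the largest chi-square of the 10 genes (1611 on 3 degrees of freedom). Gclm (ENSMUSG00000028124, chr3:122245557-122270732, plus strand, 7 exons) was at 60.7, 66.6, 51.2 and 66.7 CPM (mean 61.3 ± 7.28, SD, n = 4). Tumours 2 and 4 were level at the top and tumour 3 was lowest. Its 1.30-fold range exceeded counting noise (chi-square test, adjusted p = 0.000164), but without tumour 3 it no longer did (adjusted p = 0.258).

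The subunits thus differed in their order across tumours, and the excess of Gclc over Gclm per kilobase was 2.99, 3.62, 4.53 and 3.89 on the log2 scale (mean 3.76 ± 0.64, SD, n = 4). The excess, 13.5-fold on average, was present in 4 of 4 tumours, smallest in tumour 1 and largest in tumour 3 (exact sign-flip test, p = 0.125, adjusted 0.125). The count of Gclm is uncertain. A transcribed pseudogene on the same strand, Gm6061, overlaps 244 nt of its exons and reached 48.0 CPM, and Gclm shares a stretch of 287 nt with Ppia, which reached 410 CPM.

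Gsr (ENSMUSG00000031584, chr8:33652523-33698163, plus strand, 13 exons) encodes glutathione reductase, which returns oxidised glutathione to its reduced form with NADPH. It was at 82.4, 107, 144 and 102 CPM (mean 109 ± 25.9, SD, n = 4). Tumour 3 was highest, tumour 1 lowest, and tumours 2 and 4 lay close together. The 1.75-fold range exceeded counting noise (chi-square test, adjusted p = 6.18e-33).

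The thioredoxin branch was represented by Txnrd1 and Srxn1, which differed in their top tumour. Txnrd1 (ENSMUSG00000020250, chr10:82833951-82897712, plus strand, 15 exons), the cytosolic thioredoxin reductase, was at 140, 204, 185 and 172 CPM (mean 175 ± 26.8, SD, n = 4). Tumour 2 was highest and tumour 1 lowest, a 1.46-fold range (chi-square test, adjusted p = 8.97e-23). Srxn1 (ENSMUSG00000032802, chr2:152105516-152111376, plus strand, 2 exons) encodes sulfiredoxin, which repairs over-oxidised peroxiredoxins. It was at 27.5, 31.8, 51.2 and 41.4 CPM (mean 38.0 ± 10.6, SD, n = 4), highest in tumour 3 and lowest in tumour 1, a 1.86-fold range (chi-square test, adjusted p = 1.32e-15).

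**Figure D1:**
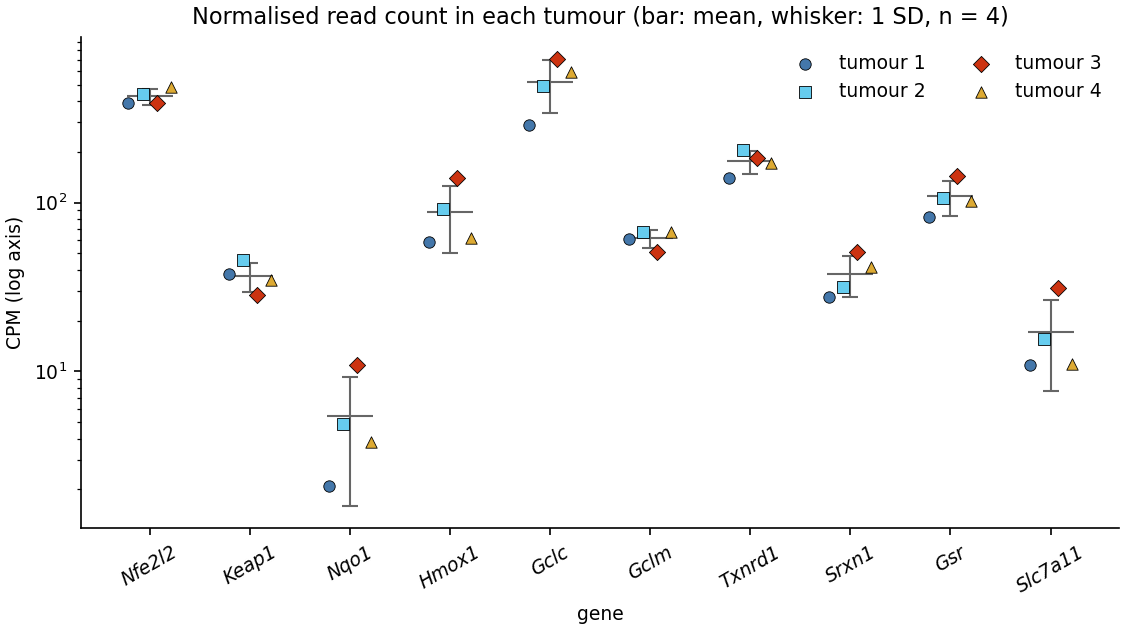
CPM of the 10 genes in each tumour on a log axis, with 1 point per tumour, the mean as a horizontal bar and whiskers of 1 SD (n = 4). Tumour 3 lies at the top for Nqo1, Hmox1, Gclc, Srxn1, Gsr and Slc7a11 and at the bottom for Keap1 and Gclm.

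A single order recurred among the targets. Of the 10 genes, 6 (Nqo1, Hmox1, Gclc, Srxn1, Gsr and Slc7a11) were both highest in tumour 3 and lowest in tumour 1, an order found for 15.6% of all tested genes. Tumour 3 was the top tumour for 30.2% of tested genes and tumour 1 the bottom tumour for 30.4%. For the 10 genes these counts were 6 and 8, the other 2 with tumour 1 at the bottom being Nfe2l2 and Txnrd1. Several of these bottom ranks were within counting error. The exact Poisson interval of tumour 1 overlapped that of tumour 4 for Nqo1, Hmox1 and Slc7a11. It overlapped that of tumour 2 for Srxn1 and that of tumour 3 for Nfe2l2. Only for Gclc, Gsr and Txnrd1 did it lie below those of all other tumours. Tumour 2 was the top tumour of Keap1 and Txnrd1 (20.4% of tested genes) and tumour 4 that of Nfe2l2 and Gclm (18.0%), although Gclm passed to tumour 2 with DESeq2 size factors. No gene of the 10 was highest in tumour 1 (31.4% of tested genes) or lowest in tumour 2 (19.4%) or tumour 4 (17.7%), and Keap1 and Gclm were lowest in tumour 3 (32.5%). These ranks of Keap1 and Gclm were also within counting error. The interval of tumour 3 overlapped that of tumour 4 for Keap1 and that of tumour 1 for Gclm. At the top, the interval of tumour 2 overlapped that of tumour 1 for Keap1. For Gclm, that of tumour 4 overlapped those of tumours 1 and 2. Relative to each gene's own mean, tumour 3 stood at 1.25 for Nqo1, 1.00 for Slc7a11, 0.76 for Hmox1, 0.52 for Gclc, 0.47 for Srxn1 and 0.44 for Gsr on the log2 scale. Tumour 1 stood at -1.10 for Nqo1, -0.78 for Gclc and between -0.51 and -0.37 for the other 4. Tumour 2 stood between -0.21 and 0.16 for the 6 genes. Tumour 4 was near tumour 1 for Slc7a11 (-0.48) and Hmox1 (-0.42) and stood between -0.25 and 0.27 for the other 4. Tumours 2 and 4 split the 6 genes: tumour 4 was above tumour 2 for Gclc and Srxn1 and below it for Nqo1, Slc7a11, Hmox1 and Gsr. The same 6 genes kept tumour 3 at the top under both other scalings of library size, with a larger pseudocount and in the authors' log2 table. Leaving out tumour 1, 2 or 4 cannot test this, since a top tumour stays at the top apart from small changes in scaling. The bottom tumour was not followed under these settings. The genes share their libraries, so they are not independent of each other.

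**Figure D2:**
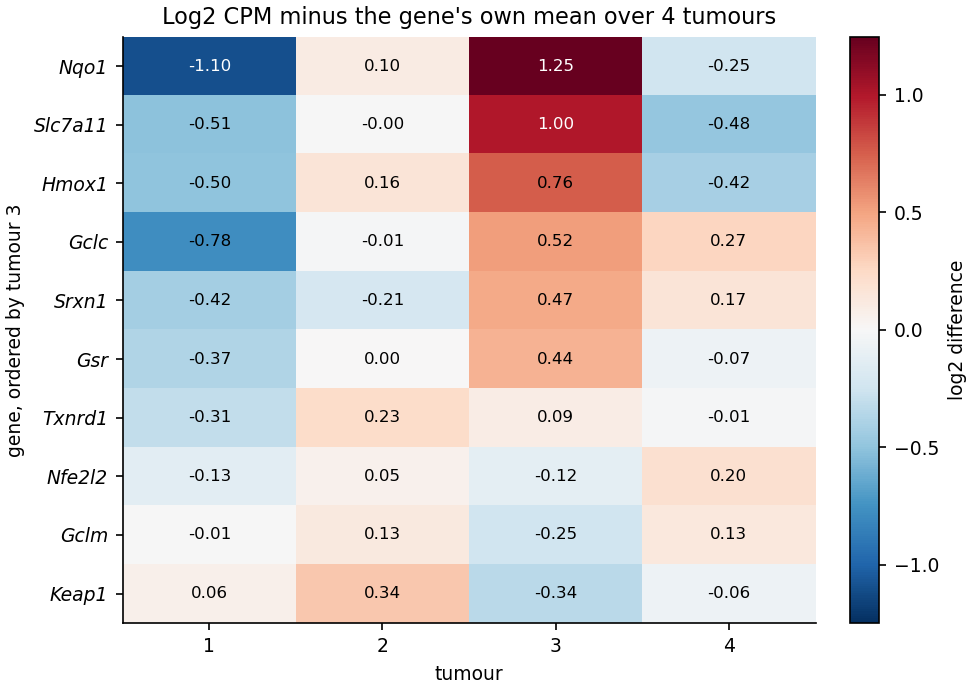
Log2 CPM of each gene in each tumour minus the gene's own mean over the 4 tumours, in colour and as numbers, with genes ordered by their value in tumour 3. Values in tumour 3 run from 1.25 for Nqo1 to -0.34 for Keap1, and the upper 6 genes are negative in tumour 1.

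Other transcripts shared this order in part. Tumour 3 was also the top tumour for 4 of 4 pan-leukocyte markers, for 4 of 5 macrophage markers (summed 248 CPM against 148 to 169), for 4 of 5 alveolar macrophage markers (906 CPM against 200 to 426) and for 5 of 5 red blood cell markers (110 CPM against 32.3 to 45.1). The remaining genes of the macrophage lists, C1qa and Fabp4, were instead lowest in tumour 3, at 25.7 and 5.68 CPM. Chil3, at 775 CPM, made up most of the alveolar macrophage sum in tumour 3. The other end of the order was shared less. Tumour 1 was lowest for 4 of 4 pan-leukocyte, 4 of 5 alveolar macrophage, 2 of 5 macrophage and 1 of 5 red blood cell markers. Summed alveolar macrophage and red blood cell markers were lowest in tumour 2, at 200 and 32.3 CPM, against 229 and 39.8 CPM in tumour 1. Tumour 3 was on top as well for 4 of 4 T cell, 3 of 4 neutrophil, 2 of 3 B cell and 2 of 3 club cell markers. For endothelial and fibroblast markers this held for 2 of 4 each. It held for 3 of 8 alveolar type 2, 1 of 3 ciliated and 0 of 4 epithelial markers, and for 30.2% of all tested genes. T cell and B cell markers were low, at sums of at most 7.16 and 4.94 CPM. None of these markers was at 0 in all tumours. Ptprc, which encodes the leukocyte surface protein CD45, was at 26.2, 35.8, 83.4 and 38.5 CPM. Macrophages express several of the 10 genes, and the part of the immune transcripts in the levels of tumour 3 was not tested. The sum of alveolar type 2 markers was lowest in tumour 1 (32860 CPM against 53158 to 60875), as were 6 of its 8 genes, while Sftpb and Abca3 were lowest in tumour 3. Club cell markers were lowest in tumour 1 for 3 of 3 genes. The sum of epithelial markers was instead highest in tumour 1 (3972 CPM against 2488 to 2632), and 1 of its 4 genes, Cdh1, was lowest there. Alb, Ttr and Apoa1, listed as hepatocyte markers for a tissue that was not sampled, were detected, and their sum ran the other way, at 492, 270, 28.3 and 225 CPM.

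All 10 genes varied between tumours beyond counting noise, and so did 76.7% of all tested genes. The median SD of log2 CPM was 0.37 for the 10 genes and 0.29 for all tested genes, and 6 of the 10 were above the latter. A range of at least 2-fold was seen for 4 of them (Nqo1, Hmox1, Gclc and Slc7a11) and for 28.5% of tested genes. None had 1 tumour set apart from the other 3 by Dixon's ratio, against 5.86% of tested genes. The median biological coefficient of variation from edgeR was 24.7% for the 10 genes and 25.7% for all. The SD of tested genes is larger at low levels, so each gene was also set beside the median SD of tested genes in the level bin nearest to it. These medians were 0.21 to 0.47, and 8 of the 10 genes were above theirs, among them Hmox1 (0.58 against 0.22), Gclc (0.56 against 0.24), Slc7a11 (0.70 against 0.30) and Nqo1 (0.97 against 0.47). Nfe2l2 and Gclm, with SDs of 0.16 and 0.18, were below theirs, at 0.24 each.

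**Figure D3:**
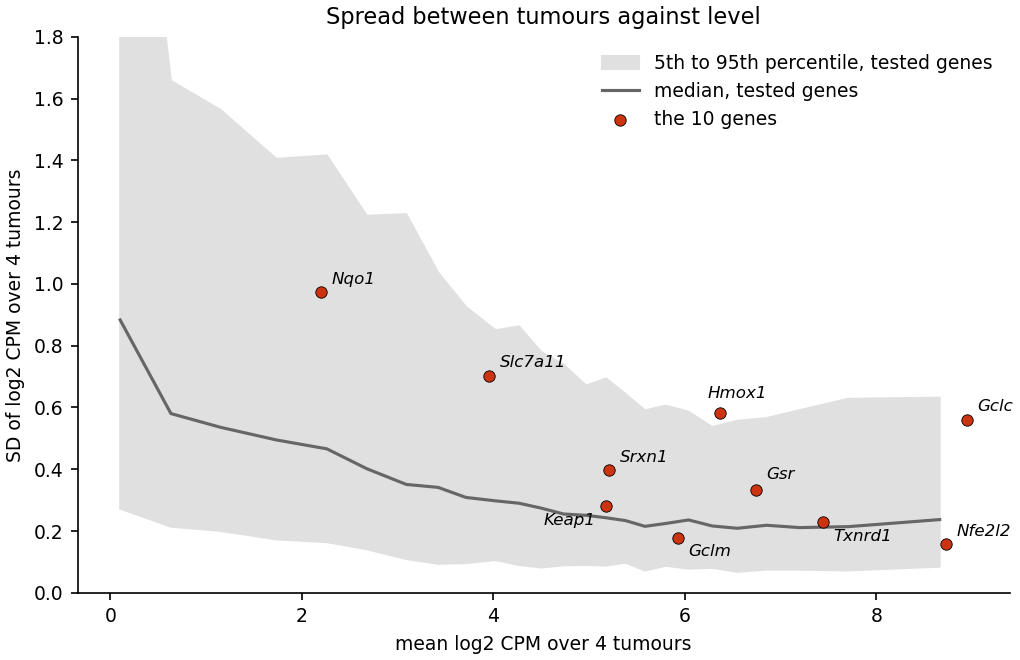
SD of log2 CPM over the 4 tumours against mean log2 CPM, with the median (line) and the 5th to 95th percentile (band) of tested genes in bins of 569 genes. Hmox1, at an SD of 0.58, lies above the band, whose upper edge is 0.54 in the nearest bin, and Nqo1, at 0.97, lies inside it.

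The levels of the 10 genes were compared with each other per kilobase of annotated exons. The order ran from Gclc (138 ± 47.4 CPM per kilobase, SD, n = 4) and Nfe2l2 (112 ± 12.4) through Hmox1 (50.1 ± 21.4), Gsr (39.6 ± 9.41) and Txnrd1 (24.7 ± 3.78) to Srxn1 (13.5 ± 3.74), Gclm (9.75 ± 1.16), Keap1 (7.80 ± 1.51), Nqo1 (3.48 ± 2.45) and Slc7a11 (1.23 ± 0.68). Of the 9 neighbouring pairs, 6 kept their order in all 4 tumours, each with the lowest p attainable (exact sign-flip test, p = 0.125, adjusted 0.1875 across the 9 pairs). For 3 pairs the mean log2 difference was within its SD, namely Gclc over Nfe2l2 (0.23 ± 0.53), Hmox1 over Gsr (0.28 ± 0.30) and Srxn1 over Gclm (0.43 ± 0.52). Keap1 exceeded Nqo1 in tumours 1, 2 and 4 and below it in tumour 3 (log2 difference -0.21). The choice of length mattered. With the longest annotated transcript in place of all annotated exons, Nfe2l2 came above Gclc and Txnrd1 above Gsr.

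**Figure D4:**
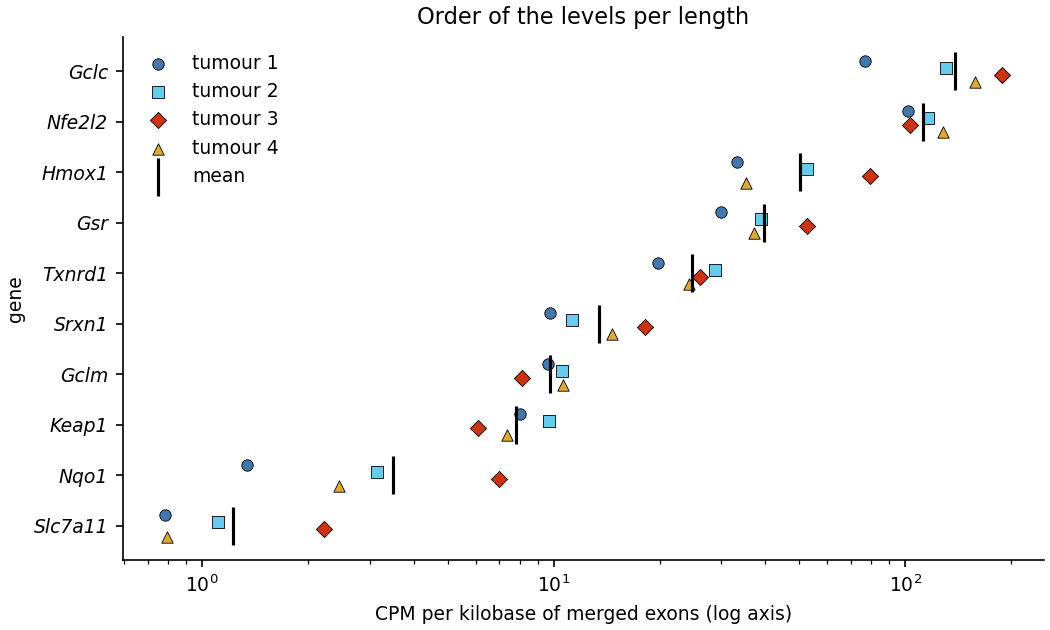
CPM per kilobase of merged annotated exons for the 10 genes on a log axis, with 1 point per tumour and the mean as a vertical bar, in order of the mean. Gclc and Nfe2l2 lead at 138 and 112, and Slc7a11 is last at 1.23.

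The other genes of the pathway were followed in 8 lists of 119 genes, of which 118 were matched in the table and 113 tested. Of the 113, 104 (92.0%) varied beyond counting noise, against 76.7% of all tested genes, and 52 (46.0%) had tumour 3 as their top tumour, against 30.2%. The share that varies grows with level, and among genes averaging 10 CPM or more it was 91 of 94 (96.8%) for the lists and 85.3% for all genes. The lists differed in this respect.

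A list of 23 further classical targets held detoxifying enzymes, exporters and iron storage genes. Of these, 15 (65.2%) were highest in tumour 3 and 12 were lowest in tumour 1, against 30.2% and 30.4% of all tested genes. Both counts include the constitutive gene Hmox2. Fth1, the ferritin heavy chain, was at 816, 993, 1776 and 941 CPM. The widest spread was that of Ces1g, a carboxylesterase, at 0.66, 0.93, 7.65 and 2.62 CPM (chi-square test, adjusted p = 4.94e-19). Hmox2, the constitutive haem oxygenase, named here after its values were seen, was at 49.2, 68.0, 107 and 65.3 CPM and had the same order of tumours 1 and 3 as Hmox1, although it shares a stretch of 767 nt with Cdip1. Abcc2, an exporter of conjugates, had 1 count in all 4 tumours together.

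The list of glutathione peroxidases and ferroptosis genes had 7 of 10 (70.0%) highest in tumour 3. Gpx2, the epithelial glutathione peroxidase, was at 28.7, 53.9, 107 and 19.3 CPM, so tumour 4 and not tumour 1 was its lowest (chi-square test, adjusted p = 2.58e-161). Acsl4, an acyl-CoA ligase that promotes ferroptosis and is counted among these 7, was at 890, 1078, 1168 and 897 CPM. Of the 6 genes that supply NADPH, 4 (66.7%) were highest in tumour 3, among them Pgd of the pentose phosphate pathway at 192, 191, 332 and 169 CPM. Me1, malic enzyme, was instead highest in tumour 2, at 460, 792, 520 and 511 CPM.

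In the thioredoxin, glutaredoxin and peroxiredoxin system 10 of 19 (52.6%) were highest in tumour 3. Txnrd3, a further thioredoxin reductase, was at 15.5, 33.7, 46.9 and 31.4 CPM (chi-square test, adjusted p = 1.75e-28). Tumour 1 was its lowest, as for Txnrd1, but its top was tumour 3, whereas that of Txnrd1 was tumour 2. Prdx1, a cytosolic peroxiredoxin, was at 1375, 1351, 1426 and 1200 CPM, a 1.19-fold range. Its count is uncertain, because it shares almost identical stretches of 597 nt with Gm7204 and Gm21399. These pseudogenes reached 103 and 192 CPM.

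Regulators of the factor had 8 of 16 (50.0%) highest in tumour 3, with small differences (median SD 0.21). Sqstm1, which encodes p62, a protein that sequesters Keap1 and is itself a target, was at 217, 186, 220 and 213 CPM. Nfe2l3, a related factor, had the widest spread at 3.74, 2.32, 1.73 and 0.83 CPM.

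Of the glutathione transferases, 6 of 21 (28.6%) were highest in tumour 3, close to the share of all tested genes. Mgst1, a microsomal transferase, was at 760, 990, 913 and 797 CPM. Of the 4 superoxide dismutases and catalase, 1 was highest in tumour 3, Sod3 at 6.71, 9.99, 12.8 and 9.28 CPM, and Cat, encoding catalase, was at 296, 422, 394 and 435 CPM.

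Of the remaining genes of glutathione synthesis, uptake and breakdown, 1 of 14 (7.14%) was highest in tumour 3 and 7 were lowest there, against 32.5% of tested genes. Another 4 were lowest in tumour 1, against 30.4% of tested genes. Of the 7, Ggt1, Ggt6, Chac1 and Cbs had means of only 1.51 to 2.25 CPM. The gene highest in tumour 3 was Ggt5, a glutathione-degrading enzyme of the cell surface, at 4.07, 18.9, 20.9 and 15.5 CPM. Ggt1 and Ggt6, from the same family, were each at 0.123 CPM in tumour 3, which is 1 count, against 1.10 to 2.90 and 2.64 to 3.25 CPM in the other tumours. Slc1a5, a neutral amino acid transporter that imports glutamine, was at 130, 129, 153 and 166 CPM. These counts describe lists chosen with results of these data known, and no list was tested as a set.

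**Figure D5:**
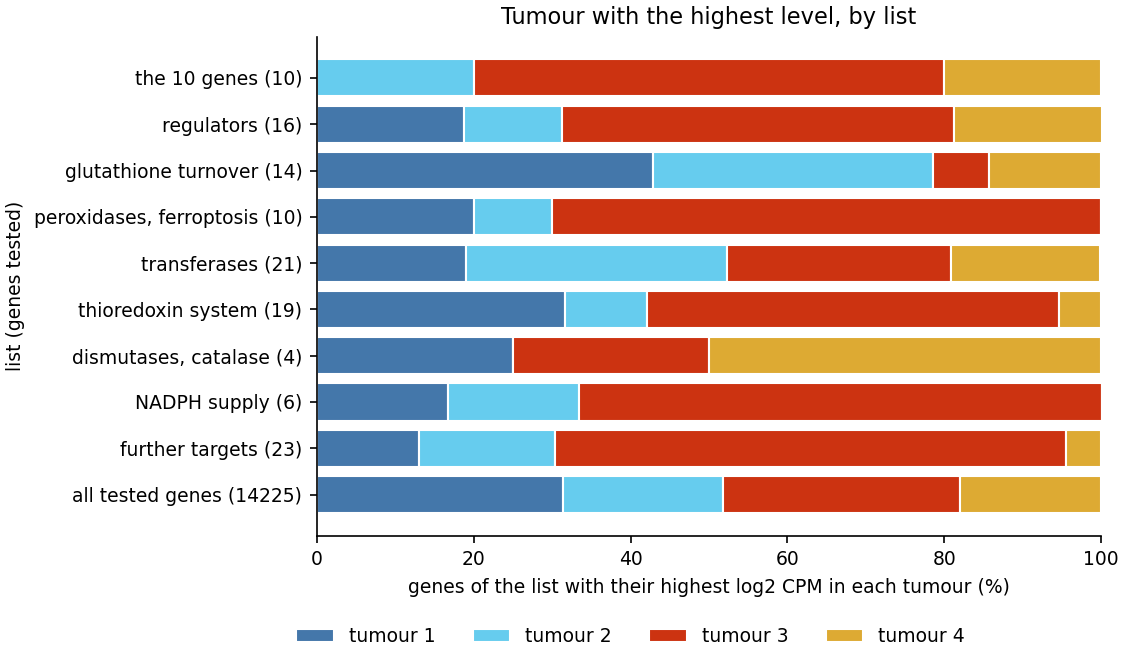
Share of the tested genes of each list that had their highest log2 CPM in each of the 4 tumours, as stacked bars (percent), with the number of genes tested in brackets. Tumour 3 takes 60% of the 10 genes, 65.2% of further targets and 70.0% of peroxidase and ferroptosis genes, 7.14% of glutathione turnover genes and 30.2% of all tested genes.

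The genes whose profile over the 4 tumours was most like that of Nqo1 were sought among 10269 genes averaging 10 CPM or more, by the Euclidean distance between log2 CPM centred on each gene's mean. The nearest were Ces1e (distance 0.25; 5.94, 16.0, 28.0 and 10.5 CPM), Pla2g4f (0.26; 15.8, 30.2, 64.2 and 26.0 CPM) and Ly6c2 (0.27; 16.3, 34.8, 92.2 and 25.2 CPM). With 4 tumours a close match in order and size is a description of these libraries.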

How the data were processed

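The authors prepared stranded polyA libraries from 500 ng of total RNA, sequenced single-end reads, trimmed them, aligned them to mm10 with HISAT2 and deposited raw counts per Ensembl gene; the submitters' processing notes name cutadapt 1.4.2 and featureCounts 1.4.4. The strand setting and annotation release are not given in the sources used here. The deposited log2 values are TMM-normalised counts after voom, per the study's methods, and served as an alternative.

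Raw counts were scaled with TMM (edgeR 4.0.16, R 4.3.3). Log2 CPM had 0.5 added to each count. With 1 group of 4 tumours, edgeR's quasi-likelihood test has nothing to compare. For each gene, the 4 counts were set against Poisson expectations in a chi-square test (3 degrees of freedom), with Benjamini-Hochberg adjustment over the 14225 genes averaging 1 CPM or more, at an adjusted p under 0.05. Genes within a tumour were compared by exact two-sided sign-flip permutation tests. The tests were checked on simulated data. Intervals and floors cover counting error only, since reads carried no molecular identifiers. A tumour was called apart by Dixon's ratio at its 95% limit for 4 samples.

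Positions, exons and lengths are from GENCODE M21 (GRCm38), in which 96.6% of gene IDs were found. Copies were found with BLAST 2.17.0 (80 nt at 97% identity or more). The 10 genes, the lists and the naming rule (from each list the highest gene, the gene of largest SD, genes with an SD among the top 5 percent, genes used in a ratio, and genes at or under 3 counts) were chosen with earlier results of these data known. Scaling, filter, pseudocount, statistic, transcript length and leaving out each tumour were varied.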

Additional observations from a re-analysis of the deposited data

Results flagged for a closer look

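In 5 of 58 results examined, 1 tumour stood apart from the other 3 by Dixon's ratio. Chance gives about 5% of such calls for unselected values. Ggt6 and Gstp2 were named for the largest SD of their lists, so this rate is no matched comparison for them. Ggt6, a gamma-glutamyl transferase, was at 0.123 CPM in tumour 3, which is 1 count, against 2.64 to 3.25 CPM elsewhere. Gstp2, a glutathione transferase, was at 5.43 CPM in tumour 3 against 1.51 to 1.87 CPM elsewhere, and its transcripts are in part almost identical to those of 2 other genes. Summed epithelial markers were at 3972 CPM in tumour 1 against 2488 to 2632 CPM. Summed club cell markers were at 36.4 CPM in tumour 1 against 521 to 878 CPM. Summed endothelial markers were at 235 CPM in tumour 3 against 173 to 178 CPM. Only 2 of these 4 genes, Pecam1 and Tek, were highest in tumour 3. Cdh5 was highest in tumour 1 (60.2 CPM against 57.3 in tumour 3) and Kdr in tumour 2 (41.0 against 39.2). None of the 10 genes was set apart in this way.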

How the results depend on the processing

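Of 282 values recomputed under alternatives, 278 kept their direction and their side of the threshold. Without a filter on low counts the share of genes with 1 tumour apart moved to 16.3%, and 53.5% of genes then varied beyond counting noise. With the longest transcript as length, Gclc minus Nfe2l2 turned to -0.25 and Gsr minus Txnrd1 to -0.26, and 5 neighbouring pairs kept their order in all tumours. Without tumour 3, the SD of Gclm was 0.077 and its spread no longer exceeded counting noise. Leaving out each tumour gave 62.3 to 71.9% of genes varying, 9 to 10 of the 10 genes varying, and a median SD of 0.28 to 0.44. Single tumours decided the SD of several genes. Without tumour 3 it fell to 0.62 for Nqo1, 0.28 for Slc7a11, 0.36 for Hmox1 and 0.20 for Gsr, and without tumour 1 to 0.27 for Gclc and 0.12 for Txnrd1, and each still exceeded counting noise. Mean log2 differences ranged from 3.50 to 4.01 for Gclc over Gclm, from 3.77 to 3.95 for Nfe2l2 over Keap1 and from -5.24 to -4.73 for Slc7a11 minus Slc3a2. At a mean CPM of at least 10, Nqo1 fell below the filter and 9 genes were left. Causes of these shifts, beyond the change of genes, lengths or tumours itself, were not tested. No paired comparison between groups was possible because the design has 1 group. Depth limits Nqo1 most, at 19 to 88 counts.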
